A study of Mus musculus with 12 samples.

Results

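The 31 genes described here encode parts of the lysosome: membrane proteins, acid hydrolases and their helper proteins, subunits of the proton pump, and the transcription factor Tfeb. They were taken as a named list, matched to the rows of a gene count table by Ensembl identifier through GENCODE symbols. All 31 were found among the 42687 identifiers, and all 31 were among the 13261 genes with enough counts to be tested; the fewest counts any of them had in a library were 233, for Atp6v0d2.

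Messenger RNA was sequenced from DC2.4, an immortalised mouse cell line labelled as dendritic and of wild-type genotype, in 4 groups of 3 libraries. Control cells were given phosphate-buffered saline (PBS). Treated cells were given 1 of 3 preparations of extracellular vesicles (EVs): ATEV at 15 µg/mL, a name the labels do not spell out, ATEV pretreated with Baseline-ZERO DNase (DNase-ATEV) at 15 µg/mL, or NTEV, vesicles of non-activated T cells, at 30 µg/mL. The NTEV group thus also differed in vesicle amount. The labels describe treatment, harvest and replating that were done 3 times, and do not say whether the 3 libraries of each group were grown separately; p-values therefore measure the spread between these libraries, which may be technical.

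Library totals ran from 19392942 to 30383572 counts. On the first principal component of all tested genes (38.2% of the variance) DNase-ATEV replicate 1 and NTEV replicate 1 lay within the range of the PBS libraries, and on the second (20.1%) ATEV replicates 2 and 3 lay apart from the other libraries. Levels are given as CPM, counts scaled to a common library size by the TMM method. Of 14 dendritic cell markers 6 could be tested (Itgax, Cd74, Zbtb46, Batf3, Irf8 and Sirpa), while Flt3, Ccr7, Clec9a, Xcr1, H2-Aa and H2-Ab1 were all under 1 CPM in every library. Among the 6 tested dendritic markers, edgeR called 2 higher with ATEV than with PBS, 1 with NTEV and 0 with DNase-ATEV. Of all genes 4.74%, 2.31% and 0% were called. With DNase-ATEV 2 of the 6 were higher at an unadjusted p under 0.05 in edgeR (4.15% of all genes). Without overlap, 2 lay above PBS (7.69% of all genes). EdgeR called 1 of the 6 higher with ATEV than with DNase-ATEV (1.46% of all genes called), and 0 lower in these comparisons. Macrophage markers were abundant, with 13 or 14 of 14 detected in each library and Cd163 at or near 0. Their summed level was 3913 to 4588 CPM in PBS, 5388 to 8764 in ATEV, 3817 to 4127 in DNase-ATEV and 5811 to 6294 in NTEV. Lyz2 made up much of this: without it the other 13 markers summed to 2461 to 2854 CPM in PBS, 2920 to 3497 in ATEV, 2576 to 2700 in DNase-ATEV and 3124 to 3283 in NTEV. With ATEV 4 of the 13 tested markers rose (Lyz2, Msr1, Fcgr1 and Itgam), Mrc1 fell, and Csf1r (0.0044) and Cd68 (0.05) had log2 fold changes near 0. The part of these markers in the results on lysosomal genes was not tested. Of 17 T cell markers 4 could be tested: Cd28 at 26.6 to 94.6 CPM, Lck at 6.85 to 18.5, and Cd5 and Lat at lower levels. Cd28 was lower with ATEV (-0.83) and NTEV (-1.07) than with PBS, by edgeR's test. With DNase-ATEV it stood at 37.9 to 48.1 CPM, below the 50.9 to 94.6 of PBS, but was not called. The receptor genes Cd3e, Trbc1 and Trbc2 had no counts in any library.

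Lysosomes are acidic organelles in which material taken up from outside or delivered by autophagy is broken down. A vacuolar ATPase pumps protons into the lumen, soluble hydrolases work at the low pH, and heavily glycosylated membrane proteins line the inside of the limiting membrane. In dendritic cells and macrophages the same compartment degrades engulfed particles and prepares peptides for presentation to T cells. The factor TFEB and its relatives bind an E-box motif found near the start of many lysosomal genes, through which these genes can be regulated together.

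Between genes, levels are compared only after division by the gene's exon length in kb. On that scale Psap, which encodes the precursor of the saposins that help degrade sphingolipids, was highest, with a mean of 915 CPM per kb over the 12 libraries. It was followed by the asparaginyl endopeptidase Lgmn (582), the progranulin gene Grn (438) and the membrane glycoprotein gene Lamp1 (434). At the low end were Tfeb (4.09), the acid sphingomyelinase gene Smpd1 (6.74), the calcium channel gene Mcoln1 (8.09) and the proton pump subunit gene Atp6v0d2 (12.6). The members thus spanned over 2 orders of magnitude per length. Except in Npc1, Mcoln1, Hexa, Neu1, Smpd1 and Atp6v0d2, the highest library was less than 2 times the lowest; it was 1.22 times the lowest for Lgmn and 7.88 times for Atp6v0d2.

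**Figure D1:**
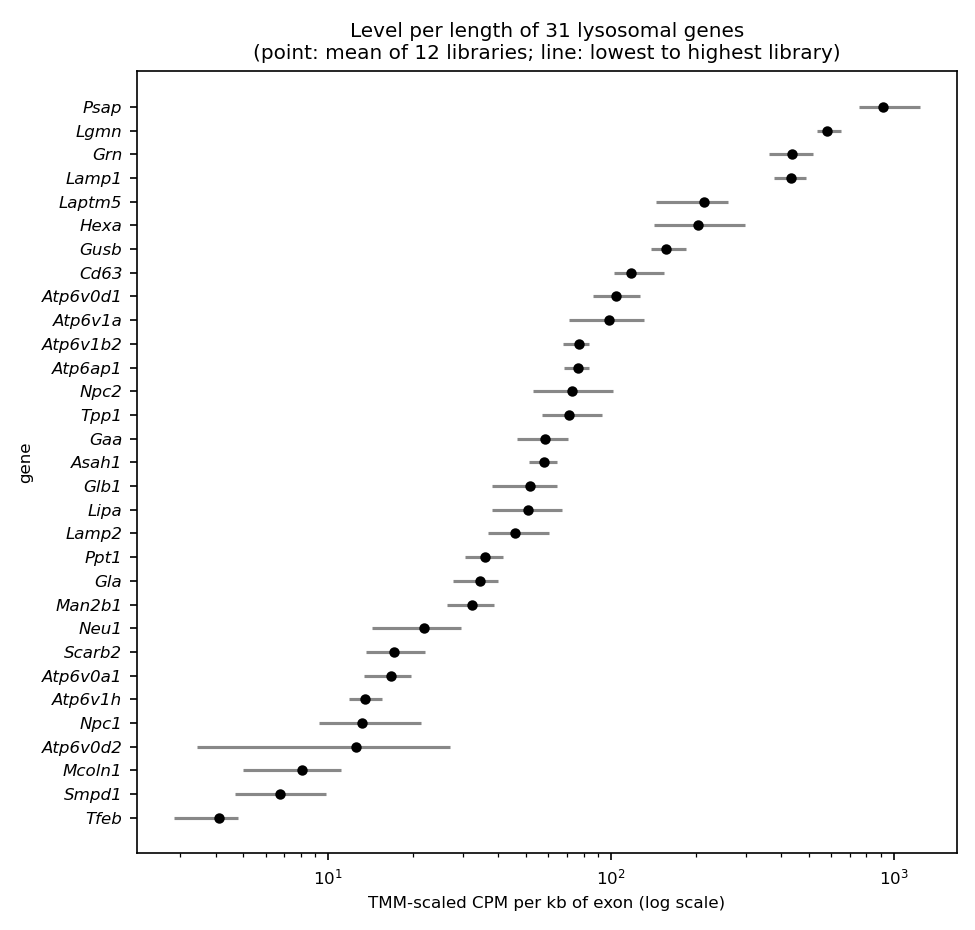
Level of each of the 31 lysosomal genes in TMM-scaled CPM per kb of exon, on a log axis; points are means of 12 libraries and lines run from the lowest to the highest library. Psap stands highest at 915 and Tfeb lowest at 4.09, and the line of Atp6v0d2 is the longest.

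ATEV was first set against PBS, the vehicle. Of the 31 genes, Npc2 and Lamp2 rose and none fell in edgeR's quasi-likelihood test (adjusted p under 0.05). Over all genes tested 4.74% were called, so that 2 of 31 is a share near the background. The log2 fold change was above 0 for 25 of the 31 members (80.6%), against 53.3% of all genes, and the median was 0.21, against 0.03 for all genes; without ATEV replicate 2 the members' median was 0.13. An unadjusted p under 0.05 was reached by 9 members (29.0%), near the 26.8% of all genes in either direction. By direction, 8 members were higher (25.8%, against 14.2% of all genes) and 1, Laptm5, was lower (1668 of 13261 genes). All 3 ATEV libraries lay above all 3 PBS libraries for 8 members (16.3% of all genes) and below them for 2, Laptm5 and Atp6ap1 (16.8% of all genes). In bulk RNA a change in the number of expressing cells and a change in RNA per cell cannot be told apart.

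DNase-ATEV and NTEV were compared with the same PBS libraries, so the 3 comparisons share their controls. For DNase-ATEV no member passed in edgeR (0% of all genes were called) or in DESeq2, and 2 members, Scarb2 and Lamp2, had an unadjusted p under 0.05 (5.96% of all genes). Its fold change was above 0 for 25 of 31 members (80.6%), against 50.5% of all genes, with a median of 0.11 (all genes 0.0030). Without overlap, 7 members lay above PBS (7.69% of all genes) and none below (5.68%). For NTEV no member passed in edgeR (2.31% of all genes were called) and 2, Neu1 and Smpd1, passed in DESeq2, which called 6.33% of all genes, so that 2 of 31 is again near the background. Here 28 of 31 members (90.3%) had a fold change above 0, against 49.7% of all genes, with a median of 0.25 (all genes -0.0027). An unadjusted p under 0.05 was reached by 12 members (38.7%), all higher. Of all genes 11.7% were higher at that threshold, and 19.1% passed it in either direction. For 11 members the NTEV libraries lay above PBS without overlap (12.8% of all genes), and for 1, Laptm5, below (11.1%). The count of NTEV calls depended on 1 library: without NTEV replicate 1, 6 members were higher in edgeR (Smpd1, Neu1, Npc1, Atp6v0d2, Hexa and Atp6v1a), in a fit that called 12.5% of all genes, and the median was 0.37, whereas without NTEV replicate 2 it was 0.16.

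**Figure D2:**
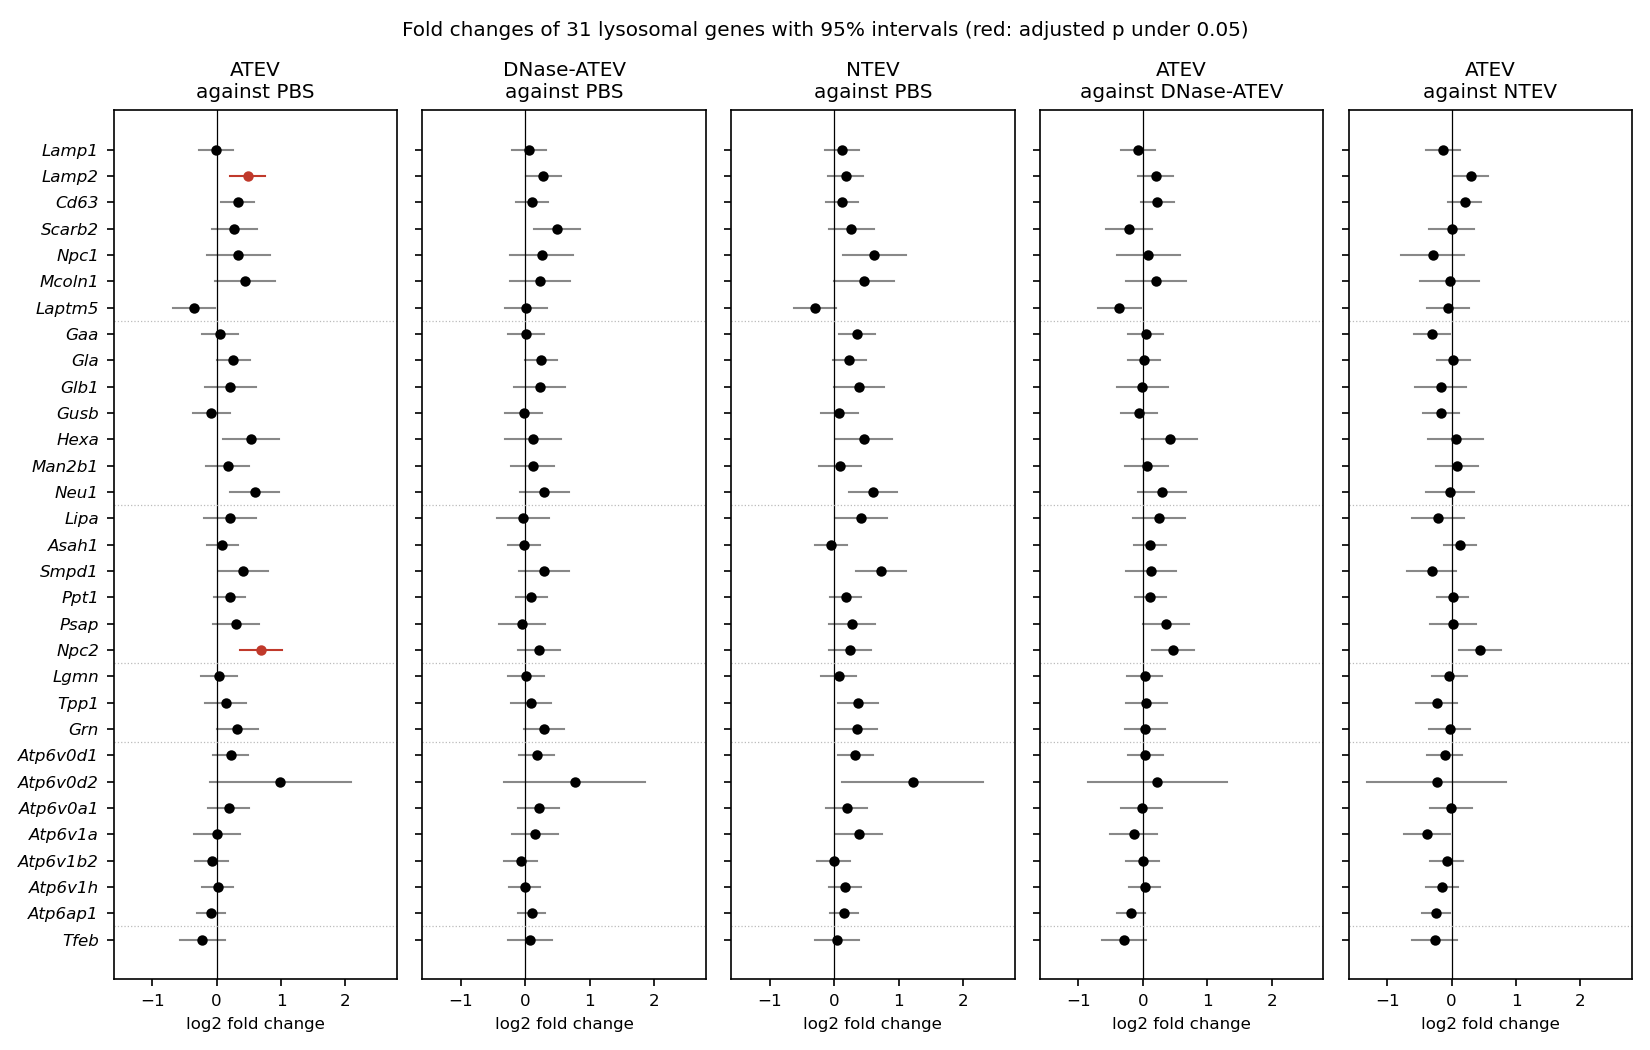
Log2 fold change (x axis) of each lysosomal gene (y axis, grouped by role between dotted lines) in the 5 comparisons; points are edgeR estimates, lines 95% intervals, and red marks an adjusted p under 0.05. Red points are Lamp2 and Npc2 for ATEV against PBS, and the interval of Atp6v0d2 is the widest in each panel.

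Among membrane proteins, Lamp2 (ENSMUSG00000016534) encodes a major glycoprotein of the lysosomal membrane with isoforms that serve in autophagy. It stood at 357, 352 and 403 CPM in the PBS libraries, 468, 504 and 576 with ATEV, 446, 449 and 452 with DNase-ATEV, and 371, 435 and 451 with NTEV. ATEV and DNase-ATEV lay above PBS without overlap, and ATEV above both other vesicle groups. Against PBS, Lamp2 rose with ATEV by 0.48 ± 0.13 on the log2 scale (SE; adjusted p = 0.0474, edgeR), a fold of 1.39. The difference was 0.28 ± 0.13 for DNase-ATEV (adjusted p = 0.824) and 0.18 ± 0.13 for NTEV (adjusted p = 0.454). Of the 6 fits that each left out 1 library, the ATEV call held in 1, without ATEV replicate 1, and in the others the adjusted p reached 0.192. It also missed the threshold when only these 2 groups were fitted (adjusted p = 0.0520), a fit that called Npc2 and Neu1 instead.

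Its relative Lamp1 encodes the other abundant membrane glycoprotein. It stood at 1106, 1122 and 1149 CPM with PBS, 1257, 1085 and 1009 with ATEV, 1160, 1199 and 1161 with DNase-ATEV, and 1184, 1315 and 1176 with NTEV. The ATEV libraries lay on either side of PBS, while DNase-ATEV and NTEV lay above it without overlap. The log2 fold change for ATEV was -0.01, with a 95% interval of -0.27 to 0.25 (adjusted p = 0.965, edgeR). Cd63, a tetraspanin of late endosomes that is also used as a vesicle marker, is named here after its values were seen: it was higher without overlap in each vesicle group, at 393 ± 14.0 CPM in PBS, 493 ± 64.9 with ATEV, 422 ± 16.1 with DNase-ATEV and 428 ± 3.61 with NTEV (SD, n = 3). Its ATEV difference did not pass in edgeR (0.33 ± 0.12, adjusted p = 0.112) but did in DESeq2 (adjusted p = 0.0384), which called 11.4% of all genes.

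Mcoln1, the lysosomal calcium channel TRPML1, stood at 37.6, 51.7 and 60.2 CPM with PBS, 68.8, 75.0 and 58.3 with ATEV, 43.9, 65.7 and 65.7 with DNase-ATEV, and 52.1, 84.0 and 70.5 with NTEV. Every vesicle group overlapped PBS, and the differences of 0.44, 0.23 and 0.47 did not pass (adjusted p = 0.208, 0.837 and 0.257, edgeR). Laptm5, a lysosomal membrane protein of blood cells that lowers antigen and cytokine receptors, lay in the opposite direction. It stood at 913, 902 and 881 CPM with PBS, 841, 723 and 548 with ATEV, 851, 980 and 887 with DNase-ATEV, and 759, 783 and 659 with NTEV. All ATEV and all NTEV libraries lay below all PBS libraries, and DNase-ATEV lay on either side, yet no difference passed (-0.35 for ATEV, adjusted p = 0.163; -0.29 for NTEV, adjusted p = 0.314). Scarb2, a sorting receptor for glucocerebrosidase, and Npc1, a cholesterol exporter, ranged from 85.5 to 138 and from 105 to 242 CPM over the libraries, with no call in any comparison.

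Of the 7 glycosidases, none passed in any comparison. Hexa, a subunit of beta-hexosaminidase, had the highest level per length of these. It stood at 283, 309 and 400 CPM with PBS, 509, 462 and 458 with ATEV, 301, 375 and 396 with DNase-ATEV, and 328, 594 and 447 with NTEV. ATEV lay above PBS and DNase-ATEV without overlap, at 0.53 ± 0.20 (adjusted p = 0.125, edgeR) and 0.41 ± 0.20 (adjusted p = 0.352). Neu1, the lysosomal sialidase, was lowest per length, at 53.5, 61.3 and 71.8 CPM with PBS, 84.1, 104 and 92.0 with ATEV, 62.5, 85.6 and 81.0 with DNase-ATEV, and 73.5, 110 and 101 with NTEV. ATEV and NTEV lay above PBS without overlap. The differences were 0.59 ± 0.17 for ATEV (adjusted p = 0.0673, edgeR), 0.30 ± 0.17 for DNase-ATEV (adjusted p = 0.826) and 0.61 ± 0.17 for NTEV (adjusted p = 0.0888). DESeq2 called Neu1 for ATEV (adjusted p = 0.0227) and for NTEV (adjusted p = 0.0233). The other 5 (Gaa, Gla, Glb1, Gusb and Man2b1, which degrade glycogen, galactolipids, galactosides, glucuronides and mannosides) had ATEV differences from -0.08 to 0.26.

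The lipid group holds hydrolases and the lipid-binding proteins that serve them. Npc2 (ENSMUSG00000021242), the soluble protein that passes cholesterol to Npc1, had the smallest adjusted p of the 31 genes for ATEV against PBS. It stood at 289, 304 and 370 CPM with PBS, 475, 520 and 553 with ATEV, 330, 391 and 393 with DNase-ATEV, and 309, 420 and 416 with NTEV. The ATEV libraries lay above those of each other group without overlap, while DNase-ATEV and NTEV overlapped PBS. Npc2 rose by 0.68 ± 0.15 with ATEV (SE; adjusted p = 0.0246, edgeR), a fold of 1.61. Leaving out either PBS replicate 3 or ATEV replicate 1 kept this call; leaving out any other library of these groups ended it, with an adjusted p of at most 0.118. DNase-ATEV and NTEV differed from PBS by 0.21 ± 0.15 (adjusted p = 0.829) and 0.25 ± 0.15 (adjusted p = 0.386).

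Psap stood at 2146, 2069 and 2602 CPM with PBS, 2895, 3085 and 2442 with ATEV, 2139, 2331 and 2117 with DNase-ATEV, and 2340, 3394 and 2559 with NTEV. ATEV and NTEV lay above DNase-ATEV without overlap, all 3 vesicle groups overlapped PBS, and the ATEV difference from PBS was 0.31 ± 0.17 (adjusted p = 0.252, edgeR). Smpd1, which splits sphingomyelin, stood at 17.5, 18.6 and 15.6 CPM with PBS, 25.3, 24.2 and 19.6 with ATEV, 17.0, 21.4 and 25.0 with DNase-ATEV, and 22.8, 30.2 and 32.8 with NTEV. ATEV and NTEV lay above PBS without overlap. For NTEV the difference was 0.73 ± 0.18 (adjusted p = 0.0517, edgeR). It passed in DESeq2 (0.00530), which called 6.33% of all genes, and in edgeR with RLE normalisation (0.0484), which called 2.44%. It also passed with no low-count filter (0.00952, 3.79% of all genes called) and without NTEV replicate 1 (0.0109, 12.5% called). It missed with the replicate block (0.0600), in the fit of these 2 groups alone (0.108) and without any other single library (0.134 to 0.223). For ATEV the difference was 0.42 ± 0.18 (adjusted p = 0.161, edgeR). The acid lipase Lipa, the ceramidase Asah1 and the thioesterase Ppt1 had ATEV differences from 0.09 to 0.21, none called.

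Of the proteases and progranulin, Lgmn had one of the highest levels per length and hardly varied. It stood at 1268, 1261 and 1450 CPM with PBS, 1403, 1430 and 1243 with ATEV, 1261, 1408 and 1330 with DNase-ATEV, and 1260, 1517 and 1398 with NTEV. All groups overlapped, and the interval of the ATEV difference ran from -0.24 to 0.31. Tpp1, a tripeptidyl peptidase, stood at 316, 339 and 336 CPM with PBS, 410, 385 and 296 with ATEV, 323, 352 and 376 with DNase-ATEV, and 365, 482 and 434 with NTEV. Only NTEV lay above PBS without overlap (0.37 ± 0.15, adjusted p = 0.191, edgeR). Grn, whose product is cut into granulins in lysosomes, stood at 1255, 1329 and 1261 CPM with PBS, 1802, 1723 and 1284 with ATEV, 1456, 1602 and 1637 with DNase-ATEV, and 1458, 1764 and 1690 with NTEV. DNase-ATEV and NTEV lay above PBS without overlap, and the differences for ATEV, DNase-ATEV and NTEV were 0.32, 0.29 and 0.35, each with an SE of 0.15 (adjusted p = 0.180, 0.824 and 0.212).

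The 7 proton pump genes had no call in any comparison. Atp6v0d1, the widely expressed d subunit of the membrane sector, was highest per length. It stood at 155, 161 and 174 CPM with PBS, 209, 195 and 167 with ATEV, 170, 193 and 193 with DNase-ATEV, and 180, 227 and 209 with NTEV. Its NTEV libraries lay above PBS without overlap (0.33 ± 0.13, adjusted p = 0.185, edgeR). Atp6v0d2, the alternative d subunit known from osteoclasts and macrophages, was lowest per length and had the largest and least certain differences. It stood at 9.31, 26.8 and 22.6 CPM with PBS, 55.8, 40.8 and 19.1 with ATEV, 25.4, 29.1 and 44.7 with DNase-ATEV, and 16.6, 73.3 and 46.5 with NTEV. Every group overlapped PBS, and the libraries of 1 group lay as far apart as 16.6 and 73.3 (NTEV replicates 1 and 2). Differences from PBS were 0.99 ± 0.51 for ATEV (95% interval -0.11 to 2.08, adjusted p = 0.229), 0.76 ± 0.51 for DNase-ATEV (adjusted p = 0.826) and 1.22 ± 0.51 for NTEV (adjusted p = 0.214). The subunits Atp6v0a1, Atp6v1a, Atp6v1b2 and Atp6v1h and the accessory protein Atp6ap1 had ATEV differences from -0.09 to 0.19.

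**Figure D3:**
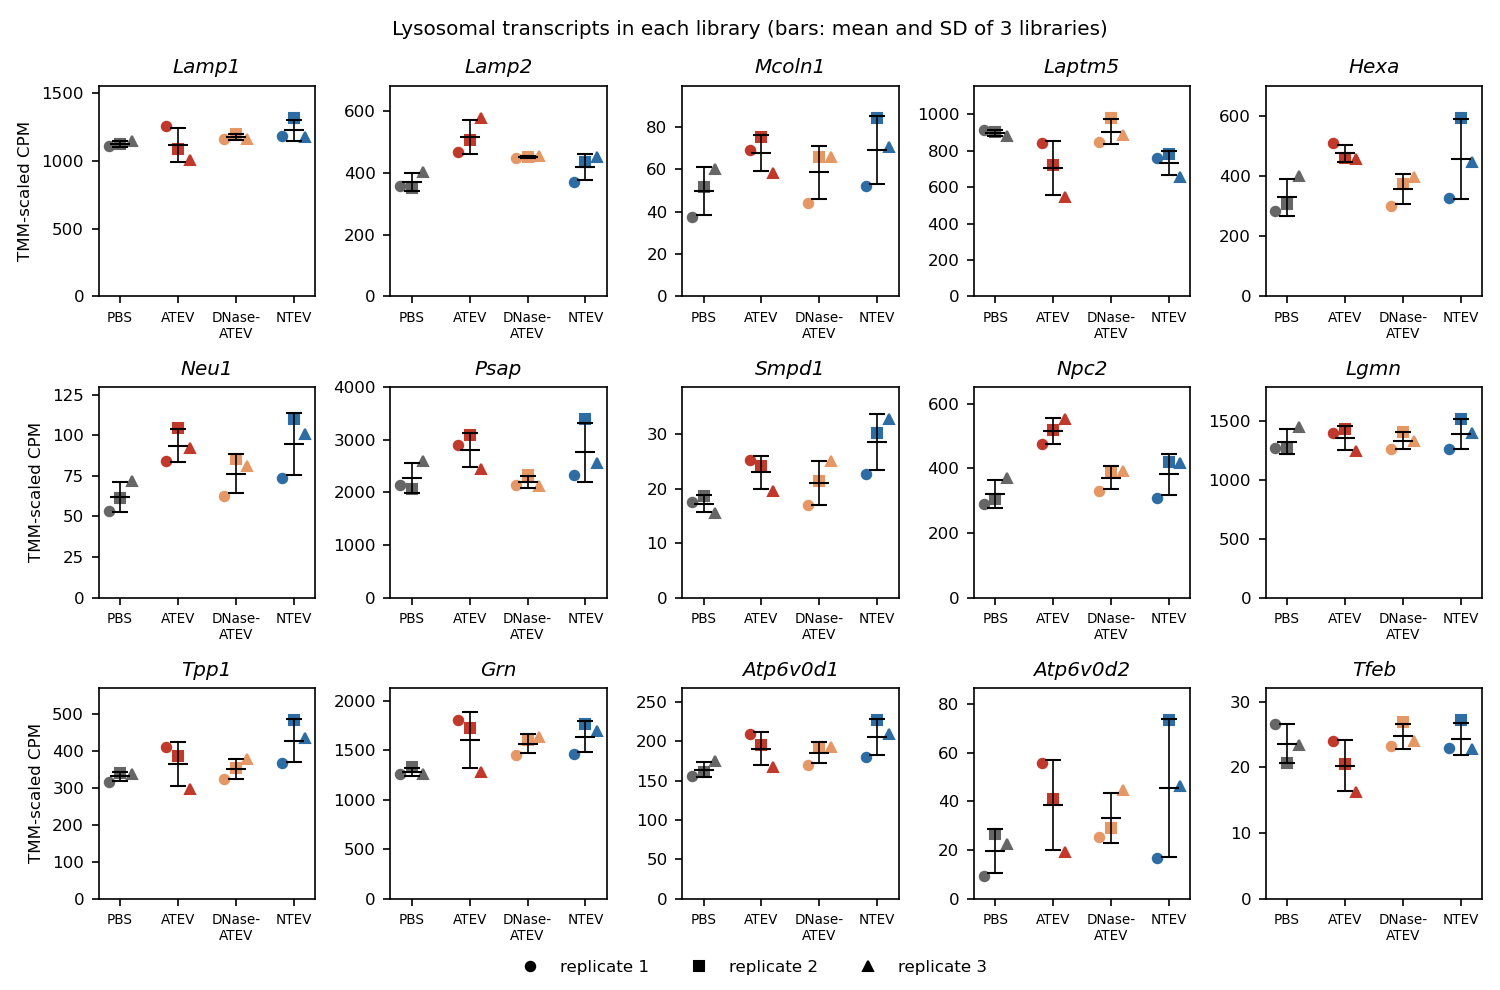
TMM-scaled CPM (y axis, from 0) of 15 lysosomal genes in each of 12 libraries by group (x axis), with marker shape for the replicate number and bars for mean and SD of 3 libraries. Npc2 and Lamp2 in ATEV lie above all other groups, Laptm5 lies lower in ATEV and NTEV than in PBS, and Atp6v0d2 spreads from 9.31 to 73.3.

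Tfeb, the transcription factor that drives lysosomal genes when it enters the nucleus, had the lowest level per length of all 31 genes. It stood at 26.6, 20.7 and 23.4 CPM with PBS, 23.9, 20.5 and 16.2 with ATEV, 23.3, 26.9 and 24.0 with DNase-ATEV, and 22.9, 27.1 and 22.8 with NTEV. All groups overlapped PBS. The ATEV difference was -0.22 with a 95% interval of -0.57 to 0.12 (adjusted p = 0.381, edgeR). Its activity is known to be set largely by phosphorylation and localisation, which mRNA counts do not measure.

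Promoter windows of 250 bases before to 50 after the start site, from RefSeq (GRCm38.p6, which is not the build named for the counts), were found for 26 of the 31 members; Npc1, Asah1, Atp6v0d2, Atp6v1b2 and Atp6v1h had no entry. They were searched for the E-box core CACGTG and for the longer TCACGTGA that contains it, each of which reads the same on both strands. CACGTG was present in 8 of 26 members (30.8%), against 8.09% of all genes in the table, and TCACGTGA in 4 (15.4%), against 1.12%. These 4 were Atp6v0d1, Atp6v1a, Gla and Mcoln1. Stretches upstream of the start site are printed for the members with a whole TCACGTGA there or several CACGTG cores, 5′ to 3′ on the gene's strand with matches to TCACGTGA (in Lamp1, to CACGTG) in capitals, to show the element and its neighbourhood. The Mcoln1 stretch lies at chr8:3500443-3500510 (+), the Atp6v1a stretch at chr16:44139354-44139421 (-), the Gla stretch at chrX:134601163-134601255 (-) and the Lamp1 stretch at chr8:13159070-13159160 (+).
Mcoln1: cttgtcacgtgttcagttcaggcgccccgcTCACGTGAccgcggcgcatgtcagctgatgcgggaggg
Atp6v1a: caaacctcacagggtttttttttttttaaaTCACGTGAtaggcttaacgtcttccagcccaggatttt
Gla: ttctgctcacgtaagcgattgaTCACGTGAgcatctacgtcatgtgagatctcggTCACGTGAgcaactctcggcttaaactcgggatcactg
Lamp1: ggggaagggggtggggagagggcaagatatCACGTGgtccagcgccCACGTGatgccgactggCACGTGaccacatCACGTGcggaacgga

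The first base of the match lies 46 bases before the start site in Mcoln1 and 132 in Atp6v1a, and the Gla window holds matches at 228 and 195 bases before it. Lamp1 carries 4 CACGTG cores between 61 and 15 bases before its start. The windows of Npc2, Lamp2 and Neu1 held neither string. For ATEV against PBS the 4 members with TCACGTGA had a median log2 fold change of 0.24 and the 22 without it 0.21. The medians were 0.20 and 0.10 for DNase-ATEV against PBS, and 0.36 and 0.22 for NTEV. The ranges of both sets overlapped, and a match of letters is not a measured binding site.

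ATEV and DNase-ATEV were given at the same dose and differed in the DNase step. No member passed in edgeR (1.46% of all genes were called) or in DESeq2, and 2 had an unadjusted p under 0.05, Npc2 higher and Laptm5 lower with ATEV (15.2% of all genes). The median log2 fold change was 0.04 (all genes 0.0037), 0.12 without ATEV replicate 3 and -0.0013 without ATEV replicate 2. ATEV lay above DNase-ATEV without overlap for 6 members (10.1% of all genes), namely Npc2, Hexa, Psap, Cd63, Lamp2 and Asah1, and below for Laptm5 and Atp6ap1 (10.0% of all genes). The largest difference was that of Npc2, at 0.47 ± 0.15 with a 95% interval of 0.15 to 0.80 (adjusted p = 0.170, edgeR). For Laptm5 it was -0.36 ± 0.15 (adjusted p = 0.284).

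ATEV and NTEV differed in dose as well as in source, and no member passed between them in edgeR (0.935% of all genes were called) or in DESeq2. An unadjusted p under 0.05 was reached by 5 members (13.4% of all genes): Npc2 (0.44) and Lamp2 (0.30) were higher with ATEV, and Atp6v1a (-0.39), Gaa (-0.30) and Atp6ap1 (-0.24) lower. All 3 ATEV libraries were above all NTEV libraries for Npc2, Lamp2 and Cd63 (8.61% of all genes) and below them for Gaa and Atp6ap1 (7.16%). The fold change was below 0 for each of the 7 proton pump genes, with a median of -0.15, and for 6807 of all 13261 genes. Of 12 other tested proton pump genes, 6 were below 0 and 6 above, with a median of 0.0038. In addition, 2 of the 7 members turned when 1 library was left out. Without ATEV replicate 3, Atp6v0d2 stood at 0.09 and Atp6v0a1 at 0.14; without NTEV replicate 2 they stood at 0.32 and 0.11. Over all 31 members the median was -0.06 (all genes -0.01). It was 0.01 without ATEV replicate 3, 0.03 without NTEV replicate 2, and between -0.13 and -0.07 without any other single library.

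Within the vesicle groups the members were not at 1 level. The mean log2 level of the 31 genes relative to the PBS mean was -0.09, 0.01 and 0.08 in the PBS libraries. It was 0.28, 0.29 and 0.05 with ATEV, 0.06, 0.20 and 0.19 with DNase-ATEV, and 0.07, 0.44 and 0.31 with NTEV. In each vesicle group 1 library thus lay in the PBS range: ATEV replicate 3, DNase-ATEV replicate 1 and NTEV replicate 1. These were the lowest of their group for 21, 21 and 24 of the 31 members, whereas NTEV replicate 2 was the highest of its group for 24.

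The low libraries were not alike. NTEV replicate 1 and DNase-ATEV replicate 1 were the 2 that also lay among PBS on the first principal component over all genes. In them 12 and 11 members lay above all PBS libraries, 15 and 18 inside the PBS range, and 4 and 2 below it. ATEV replicate 3 had more members below the range, with 9 above all PBS libraries, 11 inside the range and 11 below. It held the highest level of all 12 libraries for Lamp2 (576 CPM), Cd63 (568) and Npc2 (553), and the lowest for genes that included Lamp1 (1009), Laptm5 (548), Tpp1 (296), Atp6v1a (429), Atp6ap1 (207) and Tfeb (16.2). By role, its mean relative to PBS was 0.28 for the lipid group and -0.09 for the proton pump, while in ATEV replicate 1 these were 0.26 and 0.34. The pump value of ATEV replicate 1 rested largely on Atp6v0d2 (1.62); the other 6 pump genes had a mean of 0.13 there and -0.12 in ATEV replicate 3. Of the macrophage markers, Lyz2 was highest in that library (5413 CPM), while the other 13 summed to 3351 CPM there and to 3497 in ATEV replicate 2.

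**Figure D4:**
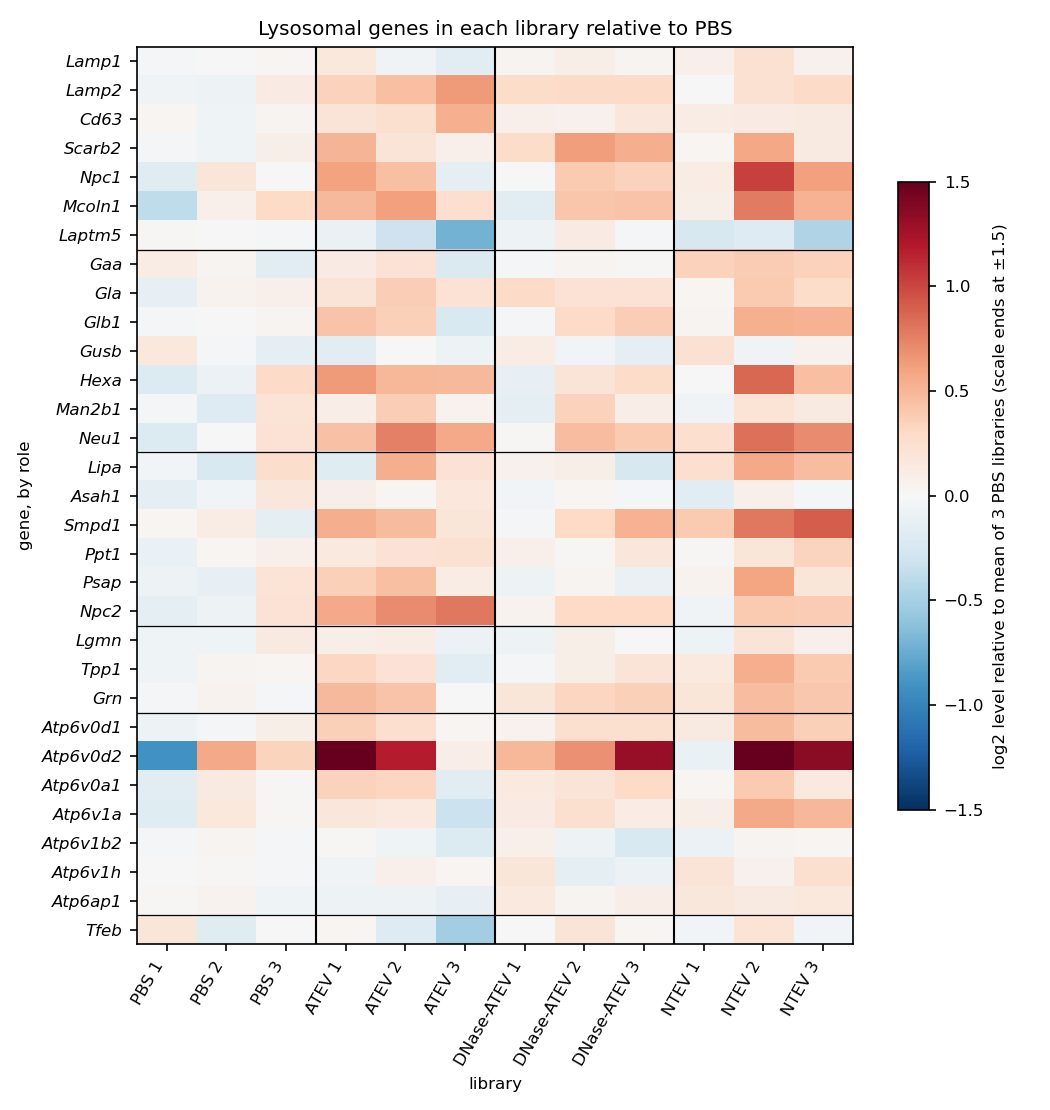
Log2 level of each lysosomal gene (rows, by role) in each library (columns, by group) relative to the mean of the 3 PBS libraries, from blue (lower) to red (higher), with the colour scale ending at ±1.5. ATEV replicate 3 is red for Lamp2, Cd63 and Npc2 and blue for Laptm5 and Tfeb, and NTEV replicate 2 is red in most rows.

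Other lysosomal and autophagy genes were counted from 7 lists with 116 tested genes. For ATEV against PBS 7 of these rose and 2 fell, against 4.74% called among all genes. For NTEV 5 rose and none fell, against 2.31%. For DNase-ATEV none passed in edgeR, and 8 (6.90%) had an unadjusted p under 0.05, near the 5.96% of all genes in either direction. All 8 were higher, as were 4.15% of all genes. Medians were 0.19, 0.12 and 0.06. Of the 10 tested cathepsins 5 rose with ATEV and 2 with NTEV. With ATEV they included the aminopeptidase Ctsh (1.83 ± 0.29, adjusted p = 0.00324), Ctss (0.80), Ctso (1.02) and the aspartic protease Ctsd (0.54). Ctsk, the collagen-degrading cathepsin, rose by 1.13 with NTEV (adjusted p = 0.00296, edgeR). Ctsd stood at 821 to 998 CPM with PBS, 1257 to 1497 with ATEV, 905 to 987 with DNase-ATEV and 1257 to 1471 with NTEV. Ctsh was also higher with ATEV than with DNase-ATEV (1.32) and NTEV (1.47). Of the 10 cathepsins, 1 was called higher with ATEV than with DNase-ATEV (1.46% of all genes called) and 2 than with NTEV (0.935%). Ctss stood at 898 to 1148 CPM with ATEV, 644 to 705 with DNase-ATEV and 573 to 616 with NTEV.

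Of 25 other membrane proteins 1 rose with ATEV, the peptide and histidine transporter Slc15a3, from 48.5 to 126 CPM (1.37 ± 0.17, adjusted p = 5.53e-04, edgeR). It also rose with NTEV (0.73), together with the iron transporter Slc11a2 (0.71), and it was higher with ATEV than with DNase-ATEV (0.91, adjusted p = 0.0125). Among 22 other hydrolases the sulfatase Galns rose with ATEV (0.64) and with NTEV (0.70). None of 12 further proton pump genes and none of 17 regulators, among them relatives of Tfeb and the Ragulator complex, passed in any of the 5 comparisons. The sorting adaptor Gga2 (-0.47) and the autophagy gene Atg9b (-0.77) fell with ATEV.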

How the data were processed

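The 31 genes and all lists were chosen with earlier results of these data known. Per the labels' protocols, libraries were made with the TruSeq stranded mRNA kit. Names in the submitters' processing notes are the build mm9, Cufflinks 2.1.1, TopHat, TopHat2 2.0.11 and bcl2fastq 2.19. Which program counted the reads, with what annotation and strand setting, is not given in the sources used here; overlapping and antisense genes may share reads. The deposited values are whole-number counts per gene, with no normalization visible. Of 42687 identifiers 42250 matched a GENCODE M21 symbol. The analysis used edgeR 4.0.16 under R 4.3.3: filterByExpr (minimum count 10, minimum total 15) kept 13261 genes, libraries were scaled by TMM, and all 12 libraries entered 1 quasi-likelihood model, with 1 coefficient for each group. Tests are two-sided, p-values were adjusted by Benjamini-Hochberg over the 13261 genes in each comparison, and standard errors come from the F statistic. Exon lengths are unions of GENCODE M21 exons. Gene Tmem55b matched no symbol.

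Values in every library are given for members called in any comparison, for Tfeb, Mcoln1, Lamp1, Lamp2, Laptm5, Grn and Atp6v0d2, and for the highest and lowest member per length of each role; of each other lysosomal list at most 4 called genes per comparison are named, those with the smallest adjusted p. Alternatives were DESeq2 1.42.0, RLE factors, no low-count filter, fits of 2 groups, the replicate block and leaving out each library. The code was tested on simulated data. Replicates differed by more than counting noise (chi-square per degree of freedom 14.7 to 130).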

Additional observations from a re-analysis of the deposited data

How the results depend on the processing

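With ATEV against PBS 2 members were called, and 4 with DESeq2 (Cd63 and Neu1 added), 4 with no filter on low counts (Neu1 and Atp6v0d2 added), 3 with the replicate block (Neu1 added), 2 in a fit of these groups alone (Npc2 and Neu1), and 0 to 2 when 1 library was left out. Of all genes, the main fit called 4.74%, DESeq2 11.4%, the fit with no filter 5.7% and the replicate block 10.9%. The share was 9.71% in the fit of these groups alone and 1.25% to 6.31% when 1 library was left out. With NTEV against PBS none was called, and 2 with DESeq2, 1 with RLE normalization (Smpd1), 4 with no filter (Smpd1, Neu1, Npc1 and Atp6v0d2), 1 with the replicate block (Neu1), and 0 to 6 when 1 library was left out. Here the main fit called 2.31% of all genes, DESeq2 6.33%, RLE normalization 2.44%, no filter 3.79% and the replicate block 2.59%. The share was 0.253% to 12.5% when 1 library was left out. With ATEV against DNase-ATEV 1 was called with the replicate block (Npc2), a fit that called 1.97% of all genes, and none otherwise. DNase-ATEV against PBS and ATEV against NTEV had none under any alternative run. The replicate numbers do not pair the samples by the labels; deviations of same-numbered libraries correlated from -0.43 to 0.68, over 0.1 in 8 of 18 pairs, and 4 of 12 libraries correlated best with their own number. Over all genes, calls for ATEV, DNase-ATEV and NTEV against PBS numbered 628, 0 and 306, and 1518, 35 and 839 with DESeq2, 1317, 47 and 876 with no filter, 1440, 1 and 343 with the replicate block, 1244, 0 and 19 in fits of 2 groups, and 169 to 849, 0 to 8 and 34 to 1685 when 1 library was left out. For ATEV against DNase-ATEV and NTEV they numbered 194 and 124, 495 and 370 with DESeq2, 394 and 242 with no filter, 261 and 135 with the replicate block, 178 and 82 in fits of 2 groups, and 78 to 522 and 70 to 302 when 1 library was left out. The cause was not tested. No called member changed sign; 101 of 1705 alternative values of members did, all of values that missed the threshold. Atp6v0d2 had 233 to 1831 counts per library and an SE of 0.51 for ATEV against PBS. Smpd1 and Tfeb had 353 to 755 and 305 to 678 counts, with SEs of 0.18 and 0.16. The part of counting error in these SEs was not tested.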
